A study of Mus musculus with 2 samples.

Results

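The genes described here are Glycam1, Fut7, Chst4, Madcam1, Enpp2, Ccl19, Ccl21a, Cxcl13 and Ltb, which are known as markers of high endothelial venules and as signals that organise lymphoid tissue. They are called the members below. Their rows were taken by gene symbol from both deposited matrices. They are 9 of 32245 gene symbols and 11 of 32285 rows, because Ccl19 and Ccl21a each have a second row on the scaffold JH584294.1, which held 0 UMIs. A UMI (unique molecular identifier) marks 1 captured RNA molecule. The 9 genes were chosen by name with measured values of these libraries in view, namely their CPM and their shares of cells with a UMI by cell type and library. Those values are therefore given as descriptions with no test.

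Single-cell RNA-seq was run on aortic cells of mice with atherosclerosis, with 1 library in each of 2 groups. Both groups lacked apolipoprotein E (ApoE-/-), had a C57BL/6 background and ate a Western diet. The group labelled WT carried no further mutation that the labels name. The group labelled EC-iCD45KO also carried a tamoxifen-inducible, endothelial cell-specific deletion of CD45, the leukocyte surface phosphatase encoded by Ptprc. Cells were bound to anti-CD31 magnetic beads before 10x Genomics library construction, so that endothelial cells were enriched. The Cre driver, the deleted exon, tamoxifen dosing of the WT mice, age and the number of animals pooled are not given in the sources used here. The study asked what endothelial CD45 does to the change of endothelial cells towards a mesenchymal state and to lesions. With 1 library per group no difference has a replicate check, no p-value is given, and every interval below is a 95% interval that covers counting error only.

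High endothelial venules are the tall-walled vessels of lymph nodes through which lymphocytes leave the blood. Their endothelium makes sulphated and fucosylated sugars on carrier proteins, which lymphocytes grip, and chemokines on the vessel wall then stop the cell. Lymphoid tissue is built when lymphotoxin from lymphocytes reaches stromal cells, which answer with the chemokines CCL19, CCL21 and CXCL13. The same programme can appear in chronically inflamed tissue, the arterial wall included.

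The promoters below are shown for Glycam1 and Madcam1, the members that differed most between the libraries in fibroblast-like and EC-like cells, and for Ccl21a with a near copy, since copies limit its counts. They are RefSeq promoter windows (250 bases before the start, GRCm38.p6, written 5′ to 3′ on the gene's strand). Of the 9 members, 8 had an entry in the promoter table. GGGNNNNNCC, a loose form of the motif that NF-kB proteins bind, was searched on both strands and is in capitals in Madcam1. In the pair from the Ccl21 family the capital marks the 1 base that differs.
Glycam1, chr15:103565082-103565331, minus strand: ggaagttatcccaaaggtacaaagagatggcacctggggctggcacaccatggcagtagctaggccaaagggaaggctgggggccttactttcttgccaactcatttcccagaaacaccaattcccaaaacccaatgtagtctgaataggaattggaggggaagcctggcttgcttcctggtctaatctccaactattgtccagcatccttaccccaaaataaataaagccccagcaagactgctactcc
Madcam1, chr10:79664309-79664558, plus strand: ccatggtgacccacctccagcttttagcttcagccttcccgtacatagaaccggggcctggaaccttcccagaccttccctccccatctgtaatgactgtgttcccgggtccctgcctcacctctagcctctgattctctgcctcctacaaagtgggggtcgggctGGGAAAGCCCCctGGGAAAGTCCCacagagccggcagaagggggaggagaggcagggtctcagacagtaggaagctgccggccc
Ccl21a, chr4:42773992-42774241, minus strand: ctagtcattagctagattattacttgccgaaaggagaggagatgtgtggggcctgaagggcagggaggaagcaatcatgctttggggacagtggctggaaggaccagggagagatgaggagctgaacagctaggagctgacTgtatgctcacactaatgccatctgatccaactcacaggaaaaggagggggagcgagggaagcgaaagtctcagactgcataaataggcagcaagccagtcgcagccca
Ccl21d, chr4:41903363-41903612, plus strand: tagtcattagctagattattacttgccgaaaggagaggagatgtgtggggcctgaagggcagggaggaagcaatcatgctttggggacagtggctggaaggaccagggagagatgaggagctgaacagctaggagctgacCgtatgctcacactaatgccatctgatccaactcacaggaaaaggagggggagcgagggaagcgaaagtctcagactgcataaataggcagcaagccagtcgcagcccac
The Glycam1 window held no GGGNNNNNCC. Madcam1 held 2 stretches of it, which started 84 and 71 bases before the gene's start. The motif was in 4 of the 8 member windows (2 stretches in Madcam1, 2 in Ltb, 1 in Ccl19 and 1 in Cxcl13) and in 12261 of 27025 promoters of the same length (45.4%). TATAAA was in 1 of the 8 (Cxcl13) and in 13.0% of all windows. The Ccl21a and Ccl21d windows matched at 248 of 249 aligned bases (99.6%). A match is a description of letters and not a bound site.

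The likeness within the Ccl21 and Ccl19 families limits their counts. Of the 781 windows of 90 bases in Ccl21a, 428 (54.8%) occur identically in other genes (Ccl21b, Gm10591, Gm13304 and Gm21541). For Ccl19 this was 395 of 954 windows (41.4%), shared with Ccl19-ps1, Ccl19-ps3, Gm12407 and Gm2564. The other 7 members shared none. The levels of Ccl19 and Ccl21a are therefore uncertain wherever reads could be assigned to a copy, and the rows of Ccl21b and Ccl21c held 0 UMIs. In the GRCm38 annotation (GENCODE M21) Ccl19 lies at chr4:42754525-42756577 and Ccl21a at chr4:42772860-42773993, both on the minus strand. Both are overlapped on the plus strand by 4930578G10Rik, and Enpp2 (chr15:54838901-54952892, minus strand) is overlapped on the plus strand by Gm26684. Whether the counting used strand is not given in the sources used here.

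After filtering, 35832 WT and 26168 EC-iCD45KO cells were kept, with a median of 1611 and 1506 UMIs per cell and 85911298 and 82928732 UMIs in all. Marker genes outside the 9 members named 12 classes, and 25.1% and 22.5% of cells stayed unnamed. Endothelial (EC)-like cells made up 8.88% and 13.7% of cells (3182 and 3582), and all 12 of their markers were detected. B-like cells were 16.1% of the WT and 1.28% of the EC-iCD45KO cells, T/NK-like cells 10.3% and 1.52%, plasma-like cells 4.45% and 0.298%, and macrophage-like cells 8.46% and 27.7%. Ptprc stood at 317 and 114 CPM (a gene's UMIs per 1000000 UMIs of the same cells) in EC-like cells, but also at 369 and 137 CPM in fibroblast-like cells. Since the deleted part of Ptprc is not named, a 3′ tag may lie outside it, and these values do not check the label. Of the barcodes kept, 259 occurred in both libraries. Leaving those cells out moved the log2 ratio of no member with at least 20 UMIs in each library by more than 0.0150 over all cells and 0.0815 in EC-like cells.

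Over all cells, the genes of this group did not move together. Ccl19 was 3.66-fold higher in the EC-iCD45KO library, while Glycam1 and Ltb were 12.4-fold and 7.01-fold lower. Of the 6 members that averaged 5 CPM or more and had 20 UMIs or more, 1 was at least 2-fold higher and 2 were at least 2-fold lower. Over all 11024 genes past the same minimum, 3.54% were at least 2-fold higher and 5.05% at least 2-fold lower. The median log2 ratio (EC-iCD45KO over WT) was -0.83 for the 6 members and -0.00 for all genes. Fut7, Chst4 and Madcam1 were below the minimum of 5 CPM and were counted nowhere in these shares.

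**Figure D1:**
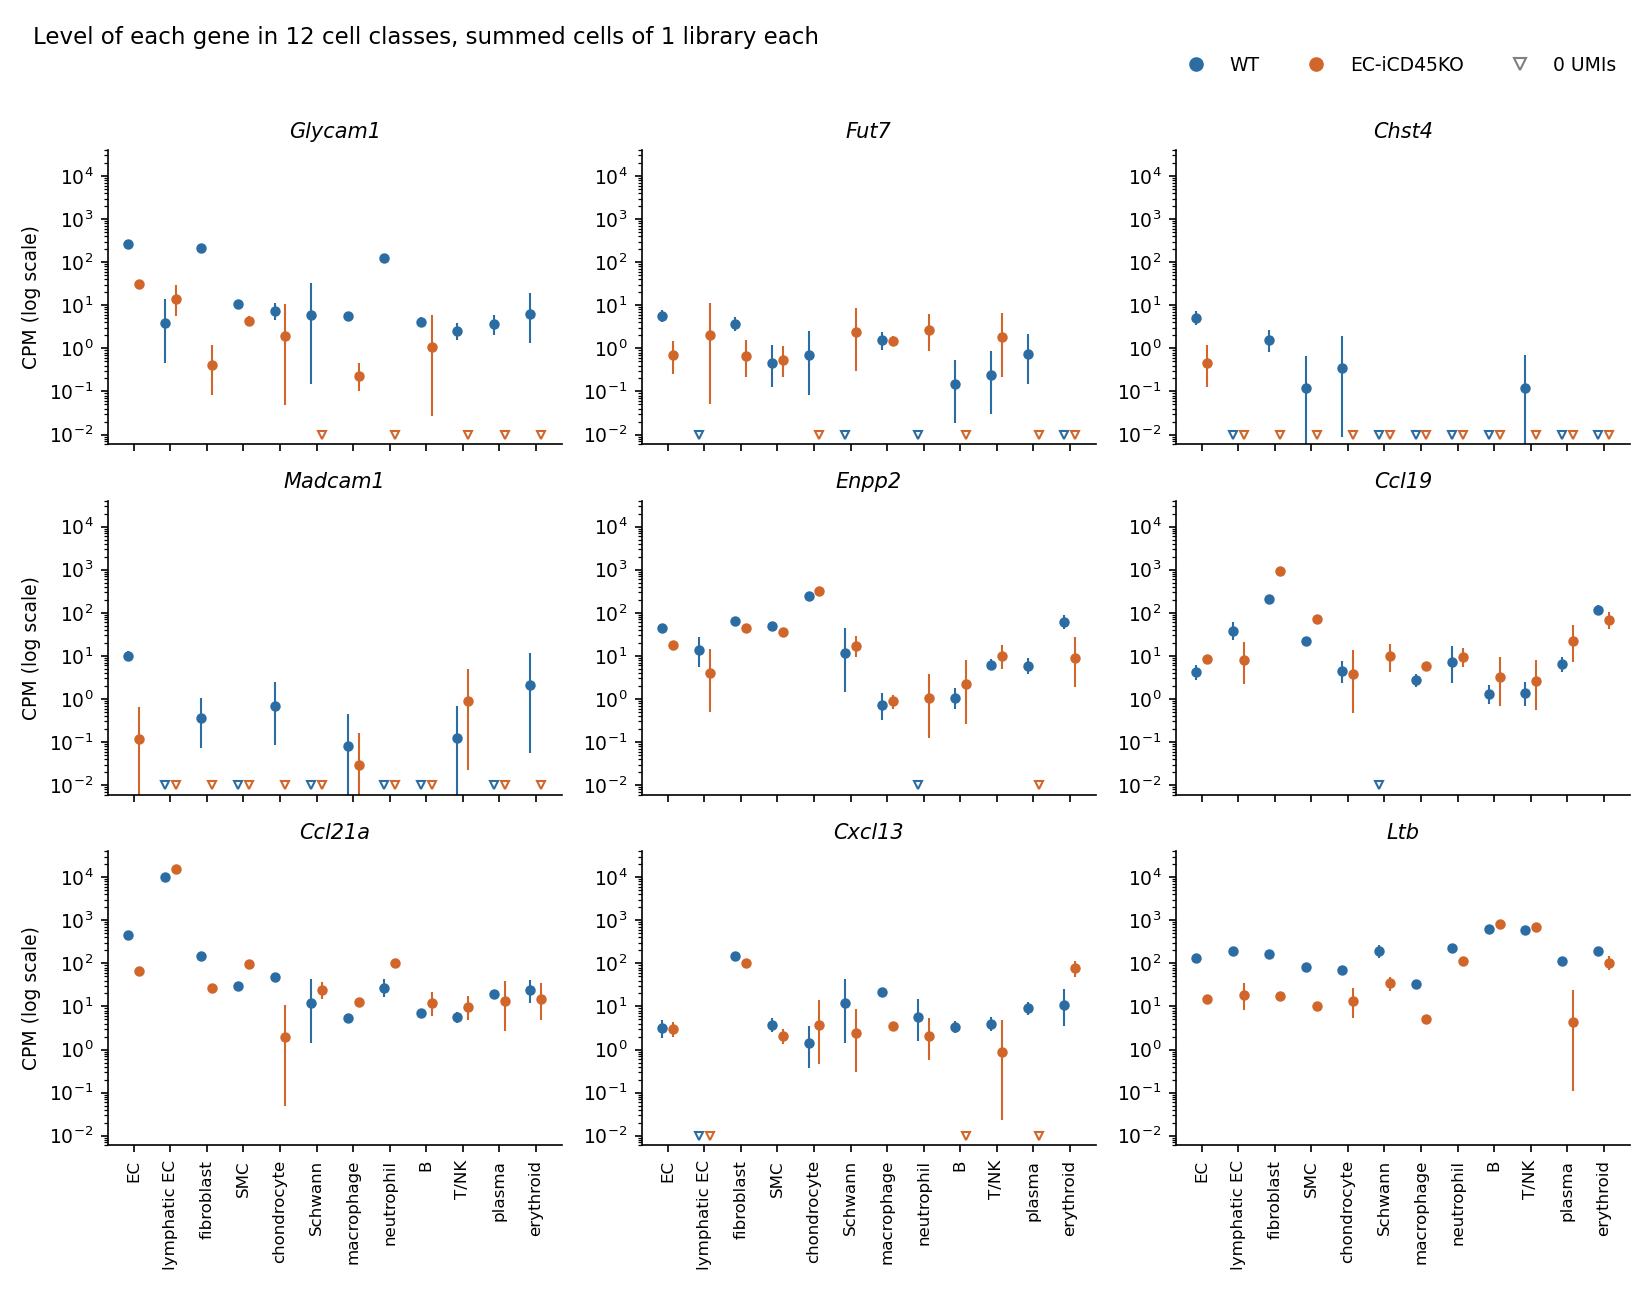
Level of each of the 9 genes (CPM, log axis) in the 12 named cell classes of the WT library (blue) and the EC-iCD45KO library (orange), with 95% counting intervals; open triangles at the bottom mark classes with 0 UMIs. Ccl21a in lymphatic EC-like cells reached 10024 and 15178 CPM, Ltb was highest in B-like cells, Ccl19 in fibroblast-like cells, and Glycam1 in EC-like cells of both libraries.

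The members split by the class in which they were most abundant, and the plot of levels by class shows this split. Glycam1, Fut7, Chst4 and Madcam1 were highest in EC-like cells of the WT library, Enpp2 in chondrocyte-like cells, Ccl19 and Cxcl13 in fibroblast-like cells, Ccl21a in lymphatic EC-like cells and Ltb in B-like cells. In the EC-iCD45KO library this held for Glycam1, Chst4, Enpp2, Ccl19, Ccl21a, Cxcl13 and Ltb. Fut7 (2.63 CPM in neutrophil-like cells) and Madcam1 (0.893 CPM in T/NK-like cells) stood first elsewhere there, on 5 UMIs and 1 UMI. Some first places are not clear. In WT the interval of the first class overlapped that of the next for Fut7 and Madcam1. In EC-iCD45KO it did so for Glycam1, Cxcl13, Fut7, Madcam1 and Chst4, the last on 4 UMIs.

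Glycam1 encodes GlyCAM-1, a secreted mucin that carries the sugars lymphocytes bind, and it was the most abundant of the 4 venule genes. EC-like cells of the WT library gave 264 CPM [252 to 277] from 1702 UMIs, and those of the EC-iCD45KO library 31.5 CPM [27.9 to 35.5] from 272 UMIs. The log2 ratio was -3.07 [-3.26 to -2.88], or -3.70 as the mean of single-cell CPM, and the intervals of the levels did not overlap. Over all cells Glycam1 was 73.1 CPM (6281 UMIs) and 5.91 CPM (490 UMIs), a log2 ratio of -3.63 [-3.77 to -3.50]. The EC-like class itself was a larger share of the EC-iCD45KO cells.

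Glycam1 was not confined to EC-like cells. In WT fibroblast-like cells it reached 217 CPM (1829 UMIs), against 0.404 CPM (3 UMIs) in the EC-iCD45KO library, a log2 ratio of -9.07 [-11.35 to -7.52]. In fibroblast-like cells with fewer than 10 Glycam1 UMIs it was 55.8 CPM in WT. Next in the WT order stood neutrophil-like cells with 124 CPM, where 86 UMIs lay in 8 cells. The EC-iCD45KO neutrophil-like cells held 0 UMIs, so the level was at least 78.5-fold lower against a floor of 3 counts per library. From SMC-like cells (10.4 CPM in WT) down, neighbouring classes in the WT order had overlapping intervals. In SMC-like cells Glycam1 was 10.4 and 4.40 CPM, a log2 ratio of -1.25 [-1.75 to -0.75], but 3 WT cells held 63 of the 89 WT UMIs. In SMC-like cells with fewer than 10 Glycam1 UMIs the order turned, with 3.05 CPM in WT and 4.40 CPM in EC-iCD45KO.

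The share of cells with a Glycam1 UMI showed the same direction after each cell was thinned to 1000 UMIs. In EC-like cells it was 2.45% [1.82 to 3.22] (50 of 2041 cells) in WT and 1.13% [0.730 to 1.66] (25 of 2220 cells) in EC-iCD45KO, with 1141 and 1362 shallower cells left out. Unthinned, the shares were 3.14% and 1.23%, at median depths of 1261 and 1242 UMIs. B-like cells, which should lack the gene, gave 0.464% of thinned cells in WT (25 of 5384, median depth 2007) and 0 of 313 in EC-iCD45KO (median depth 2559), which allows up to 0.958%. Fibroblast-like cells gave 6.15% (202 of 3287) and 0.0509% (1 of 1965), or 5.36% and 0.0896% unthinned. Free RNA was not measured apart from cells, and its part in these shares was not tested.

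A large share of the Glycam1 molecules sat in few cells. In WT, 168 cells with at least 10 Glycam1 UMIs held 74.9% of them, and in EC-iCD45KO 11 cells held 47.8%. The 168 WT cells had a median of 20 Glycam1 UMIs and a maximum of 526, at a median of 1560 UMIs in all, so that Glycam1 made up a median of 1.24% of a cell's UMIs. The 11 EC-iCD45KO cells had a median of 14 and a maximum of 92, but at a median of 12477 UMIs per cell, so that the median percent was 0.120. In EC-like cells with fewer than 10 Glycam1 UMIs the level was still 22.8 CPM in WT and 7.89 CPM in EC-iCD45KO.

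**Figure D2:**
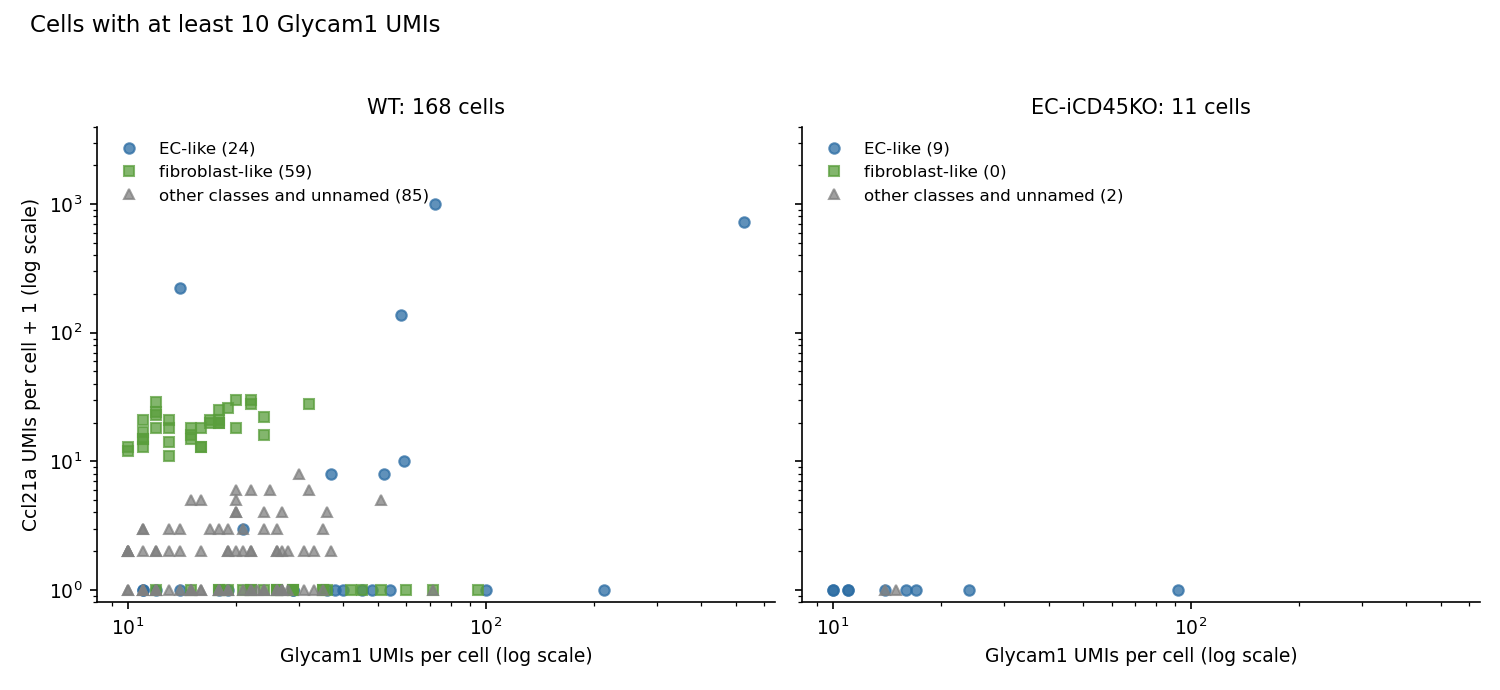
Each point is 1 cell with at least 10 Glycam1 UMIs in the WT (left) or EC-iCD45KO library (right); the x axis is Glycam1 UMIs per cell and the y axis Ccl21a UMIs per cell plus 1, both on log scales. Of the 168 WT cells 91 had a Ccl21a UMI, and none of the 11 EC-iCD45KO cells had one.

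These Glycam1-rich cells differed between the libraries in what else they carried, as the plot of Ccl21a against Glycam1 per cell shows. Ccl21a, a chemokine for CCR7-bearing lymphocytes, was detected in 91 of the 168 WT cells and in 0 of the 11 EC-iCD45KO cells, which allows a share of up to 27.3% of cells with a UMI. Fut7 was detected in 20 and 1 of them, Chst4 in 12 and 2, and Enpp2 in 71 and 4. In the EC-like cells among them (24 and 9 cells), Glycam1 stood at 15574 and 1480 CPM and Enpp2 at 1210 and 93.9 CPM. Ackr1, an atypical chemokine receptor of venules, went the other way, at 360 CPM in the 24 WT cells and 1942 CPM in the 9 EC-iCD45KO cells. So did Selp, which encodes P-selectin, at 370 and 3047 CPM. Both were picked from a longer list of venule genes and do not speak for the rest of it. Most of the 24 WT cells lay in the EC-like cluster led by Igfbp3 and Rbp7. Most of the 9 EC-iCD45KO cells lay in the one led by Gpihbp1, Ackr1 and Aplnr, so these levels compare unlike cells. EC markers summed to 4351 and 5336 CPM in the 24 and 9 cells, fibroblast markers to 3551 and 671 CPM and SMC markers to 910 and 274 CPM. These sums also compare unlike clusters, and the part of these markers' cells was not tested. These sets were cut by Glycam1 itself, and so few cells of 1 library each describe those cells and not the conditions.

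The richest venule profile lay in few cells. In the EC-like cluster led by Gpihbp1, Ackr1 and Aplnr, 6 WT cells with at least 10 Glycam1 UMIs had a median of 12036 UMIs. Together they held 902 Glycam1, 29 Fut7, 24 Chst4, 4 Madcam1, 107 Enpp2 and 2075 Ccl21a UMIs. The 7 such EC-iCD45KO cells of this cluster held 179 Glycam1, 1 Fut7, 1 Chst4, 10 Enpp2 and 0 Ccl21a UMIs. All of the Fut7, Chst4, Madcam1 and Ccl21a UMIs of the 6 WT cells lay in 4 cells with at least 10 UMIs of both Glycam1 and Ccl21a (4933 to 21947 UMIs in all). These 4 cells held 29 of the 37 Fut7 UMIs, 24 of the 33 Chst4 UMIs and 2075 of the 2878 Ccl21a UMIs of all WT EC-like cells. Fibroblast markers summed to 5731 CPM in them, against 258 CPM in the 241 other WT EC-like cells of the same depth range, and their EC markers to 4396 CPM against 4276 CPM. Their part in the result was not tested. In the other EC-like cluster, led by Igfbp3 and Rbp7, 18 WT cells had at least 10 Glycam1 UMIs (24648 CPM) and held 0 Fut7, 2 Chst4 and 25 Ccl21a UMIs.

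A second and larger group with both Glycam1 and Ccl21a carried fibroblast markers. In the C7 and Dpep1 cluster described below, 35 WT fibroblast-like cells had at least 10 UMIs of each gene. They formed a narrow cloud, with 10 to 32 Glycam1 UMIs (median 15), 10 to 29 Ccl21a UMIs (median 17) and 995 to 2703 UMIs in all. Fut7 was found in 13 of them and Enpp2 in 24, and Enpp2 stood at 698 CPM against 48.3 CPM in the 2730 other WT fibroblast-like cells of the same depth range. Their fibroblast markers summed to 9696 CPM (8605 in the others), their EC markers to 1234 CPM (522) and their SMC markers to 4114 CPM (1928). No EC-iCD45KO cell of any class had at least 10 UMIs of both genes. Doublets were removed by score only, and the part of mixed droplets in these cells was not tested.

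Fut7 encodes the fucosyltransferase that completes the selectin ligands, and Chst4 the sulphotransferase of venule endothelium that sulphates the sugars of these ligands. Both were scarce. EC-like cells held 37 Fut7 UMIs in WT (5.74 CPM [4.04 to 7.91]) and 6 in EC-iCD45KO (0.696 CPM [0.255 to 1.51]), a log2 ratio of -3.04 [-4.58 to -1.79]. Chst4 was 5.12 CPM [3.52 to 7.19] and 0.464 CPM [0.126 to 1.19] (33 and 4 UMIs), a log2 ratio of -3.46 [-5.42 to -1.97]. Both were under the minimum for a 2-fold call, and their intervals between the libraries did not overlap. As the mean of single-cell CPM the log2 ratios were -1.17 for Fut7 and -5.67 for Chst4. In EC-like cells with fewer than 10 Glycam1 UMIs, Fut7 was 1.26 and 0.589 CPM (8 and 5 UMIs) and Chst4 1.10 and 0.236 CPM (7 and 2 UMIs). Outside EC-like cells, Fut7 was 3.68 and 0.674 CPM in fibroblast-like cells and 1.53 and 1.48 CPM in macrophage-like cells, where the intervals overlapped. Chst4 in fibroblast-like cells was 1.54 CPM in WT with 0 UMIs in EC-iCD45KO, at least 3.81-fold lower against the floor of 3 counts.

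Madcam1 encodes MAdCAM-1, the ligand of integrin alpha4beta7 on mucosal venules. WT EC-like cells held 64 of its 76 WT UMIs (9.92 CPM [7.64 to 12.7]). The EC-iCD45KO EC-like cells held 1 UMI (0.116 CPM), a log2 ratio of -6.42 [-11.75 to -3.89], or -5.06 as the mean of single-cell CPM. A UMI was found in 29 of 3182 WT and 1 of 3582 EC-iCD45KO EC-like cells. After thinning the shares were 0.833% [0.486 to 1.33] and 0 of 2220, which allows a share of up to 0.135%. B-like cells held 0 Madcam1 UMIs in both libraries. In WT EC-like cells Madcam1 stood at 40.0 CPM (4 UMIs) in the 24 cells with at least 10 Glycam1 UMIs and at 9.45 CPM (60 UMIs) in the 3158 others.

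Detection of several venule genes in 1 cell was rare. Of the 4 genes, 2 or more were found in 21 of 3182 WT EC-like cells (15 with 2 and 6 with 3) and in 5 of 3582 EC-iCD45KO EC-like cells, 0.660% and 0.140%. After thinning these were 11 of 2041 cells (0.539% [0.269 to 0.962]) and 1 of 2220 (0.0450% [0.00114 to 0.251]), each a mean of 100 draws. The difference was -0.49 percentage points [-0.92 to -0.18]. Fibroblast-like cells held 2 or more in 24 of 5224 WT cells (0.459%) and 0 of 3348 EC-iCD45KO cells, which allows up to 0.0896%. Chondrocyte-like cells did in 3 of 748 WT cells (0.401%) and unnamed cells in 11 of 9004 (0.122%), with 0 of 103 and 0 of 5888 in EC-iCD45KO. No cell of the other 9 named classes did in either library. In WT EC-like cells, 11 of the 12 cells with Chst4 also had Glycam1, as did 6 of the 11 with Fut7 and 10 of the 29 with Madcam1. Summed, the 4 genes stood at 285 and 32.8 CPM in EC-like cells, a log2 ratio of -3.12 [-3.30 to -2.94]. Without the 10 cells richest in these genes in each library it was -3.40.

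**Figure D3:**
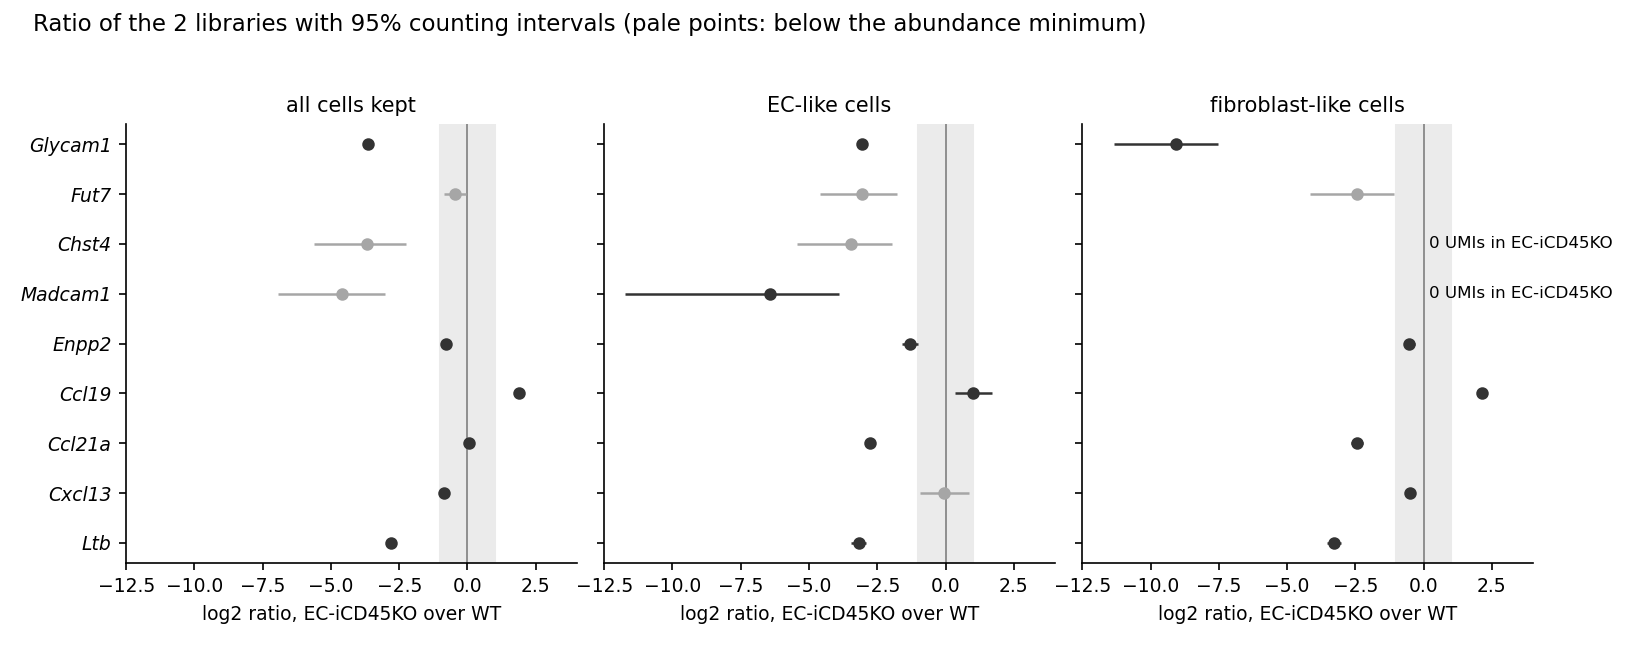
log2 ratio (EC-iCD45KO over WT) of each gene over all cells, in EC-like cells and in fibroblast-like cells, with 95% counting intervals; the grey band spans 2-fold in either direction and pale points are below the abundance minimum. In EC-like cells 7 members lie below the band, Fut7 and Chst4 as pale points, and Ccl19 is the only one above it in the other 2 panels.

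In EC-like cells, the plot of ratios shows 5 of the 6 members past the minimum at least 2-fold lower in the EC-iCD45KO library, and 0 at least 2-fold higher. Those 5 were Glycam1, Madcam1, Enpp2, Ccl21a and Ltb. Over the 10941 genes tested there, 3.81% were at least 2-fold lower and 1.84% at least 2-fold higher. Madcam1 averaged just over 5 CPM and passed the minimum only through WT, and Ltb in EC-like cells is not read as expression (below). Without both, 3 of 4 members were at least 2-fold lower. Markers of other classes moved in the same EC-like cells: B markers summed to 965 and 80.0 CPM, T/NK markers to 361 and 50.5 CPM and macrophage markers to 4117 and 6028 CPM, while EC markers summed to 3671 and 4547 CPM. Of the T/NK markers Klrb1c was at 0 in WT and Ncr1 at 0 in EC-iCD45KO. The part of these markers' cells in the result was not tested.

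Enpp2 encodes autotaxin, the secreted enzyme that makes lysophosphatidic acid and that venule endothelium uses to move lymphocytes across the wall. Its level was highest in chondrocyte-like cells, with 708 UMIs in WT (245 CPM [227 to 263]) and 168 in EC-iCD45KO (320 CPM [273 to 372]), a log2 ratio of 0.39 [0.14 to 0.63], under 2-fold. The direction was not stable: the log2 ratio was -0.15 as the mean of single-cell CPM and -0.25 [-0.73 to 0.19] without the 10 richest cells of each library, which held 39.8% and 73.2% of the UMIs. In EC-like cells it was lower in EC-iCD45KO, 44.2 CPM [39.2 to 49.6] in WT against 18.1 CPM [15.4 to 21.2], a log2 ratio of -1.29. The thinned shares of EC-like cells with a UMI were 2.40% and 1.35%. In the EC-like cells with fewer than 10 Glycam1 UMIs it was 25.8 and 16.8 CPM, under 2-fold. In fibroblast-like cells Enpp2 was 64.4 and 44.9 CPM, and in SMC-like cells 49.7 and 35.7 CPM, both under 2-fold. The 4 WT classes behind the chondrocyte-like cells (fibroblast-like, erythroid-like, SMC-like and EC-like) lay between 44.2 and 64.4 CPM, and each neighbouring pair among them had overlapping intervals.

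Ccl19 encodes a chemokine that draws CCR7-bearing T cells and dendritic cells, and over all cells it was the only member at least 2-fold higher in the EC-iCD45KO library. Fibroblast-like cells held 1754 Ccl19 UMIs in WT (208 CPM [198 to 218]) and 6882 in EC-iCD45KO (927 CPM [905 to 949]), a log2 ratio of 2.16 [2.08 to 2.23]. Without doublet removal it was 1.55 [1.47 to 1.63]. The thinned share of cells with a UMI was 9.67% (318 of 3287) and 32.9% (647 of 1965), and unthinned it was 11.6% and 34.5%. B-like cells, which should lack it, gave 0.167% and 0.319%. Cells with at least 10 Ccl19 UMIs numbered 35 and 167 among the fibroblast-like cells. In SMC-like cells Ccl19 was 22.4 CPM in WT and 72.6 CPM in EC-iCD45KO (log2 1.70), a class that the libraries filled differently (below). In EC-like cells it was 4.19 and 8.35 CPM, just under 2-fold at a log2 ratio of 0.995. Without the barcodes found in both libraries that ratio was 1.05, past 2-fold. In lymphatic EC-like cells Ccl19 was lower in EC-iCD45KO, 38.5 CPM in WT against 8.19 CPM on 20 and 4 UMIs, a log2 ratio of -2.23 [-4.24 to -0.66].

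**Figure D4:**
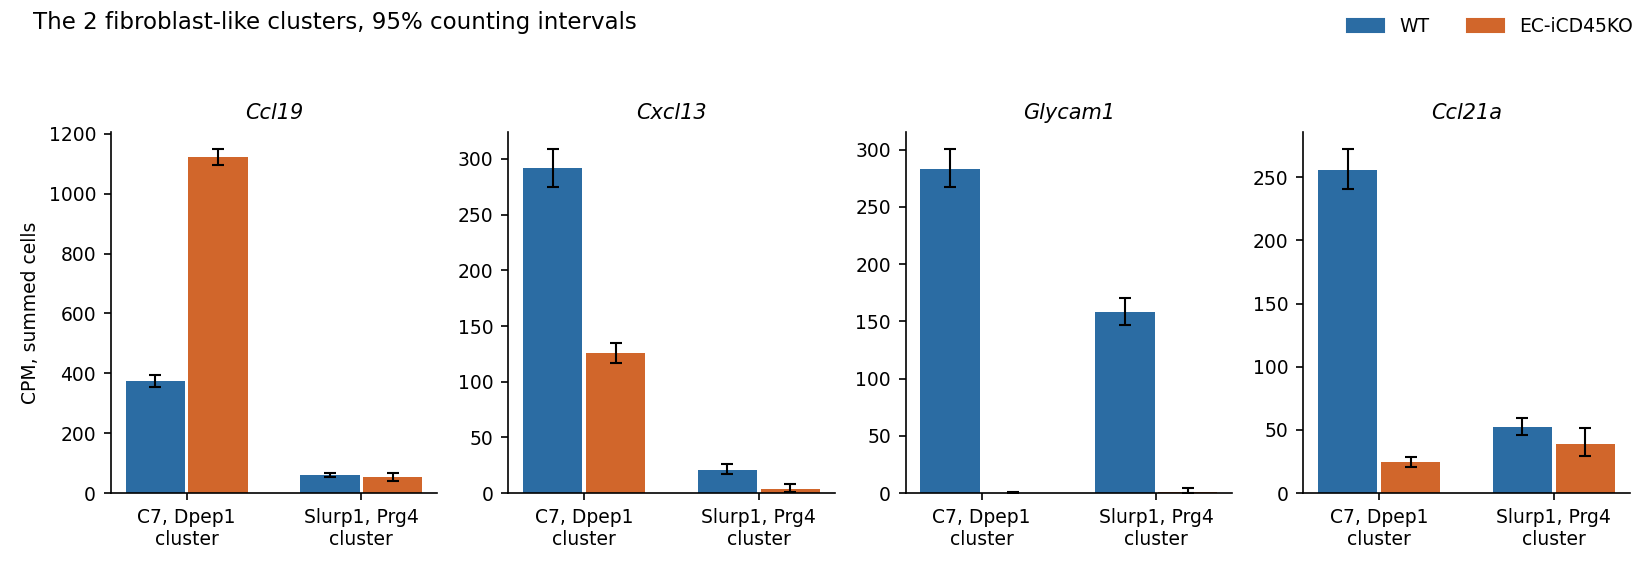
Level (CPM, bars from 0) of Ccl19, Cxcl13, Glycam1 and Ccl21a in the 2 fibroblast-like clusters of the WT (blue) and EC-iCD45KO (orange) libraries, with 95% counting intervals. In the cluster led by C7 and Dpep1, Ccl19 stood at 375 and 1122 CPM; in the cluster led by Slurp1 and Prg4 it stood at 61.3 and 53.2 CPM.

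The 2 libraries filled the fibroblast-like class with different cells. Of the 5224 WT cells, 3215 lay in a cluster led by Slurp1, Vcam1 and Prg4, while 2396 of the 3348 EC-iCD45KO cells lay in a cluster led by C7 and Dpep1. Within the C7 cluster Ccl19 was higher in EC-iCD45KO, 375 CPM in WT against 1122 CPM (log2 1.58). Within the Slurp1 cluster it was 61.3 and 53.2 CPM, a log2 ratio of -0.20 [-0.60 to 0.18]. The class ratio of 2.16 thus combines 2 clusters with different ratios and different shares of the class in each library. Both clusters were themselves mixed. At Leiden resolution 2 the cells led by Inmt, C7 and Dpep1 (1364 WT and 767 EC-iCD45KO) had Ccl19 at 182 and 275 CPM, under 2-fold, and those led by Sfrp4, Saa3 and Ccl19 itself (670 and 1533) at 532 and 1288 CPM. Of the clusters led by Slurp1, one (1763 and 809 cells) had Ccl19 at 59.6 and 52.3 CPM, and the other, led also by Aqp5 and Grem1 (510 and 379 cells), at 18.8 and 141 CPM. Fibroblast markers summed to 12498 and 19157 CPM in the class, B markers to 1156 and 78.7 CPM and T/NK markers to 537 and 84.2 CPM. The part of these markers' cells in the class values was not tested. Of the 6 members tested in fibroblast-like cells, 1 was at least 2-fold higher and 3 (Glycam1, Ccl21a and Ltb) at least 2-fold lower, where 2.04% and 5.36% of 11172 genes were. Glycam1 passed the minimum there through WT alone, and Ltb is not read as expression in this class.

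Cxcl13 encodes the chemokine that draws CXCR5-bearing B cells into follicles. Its level in fibroblast-like cells was 148 CPM [140 to 156] for WT and 104 CPM [96.4 to 111] for EC-iCD45KO, under 2-fold (log2 -0.51). This depended on the cells kept: without doublet removal the log2 ratio was -1.19 [-1.32 to -1.06], past 2-fold, and with a stricter cell filter (500 genes or more, at most 5% mitochondrial UMIs) -0.20 [-0.34 to -0.06]. Within both clusters the ratio was larger: it was lower in EC-iCD45KO, 292 CPM in WT against 126 CPM in the C7 cluster (log2 -1.21) and 21.2 CPM against 3.69 CPM in the Slurp1 cluster (log2 -2.52). Few cells carried it. The 10 richest fibroblast-like cells held 65.5% and 75.2% of its UMIs, with 211 and 223 in the richest, and the thinned shares with a UMI were 2.71% and 2.14%. Ccl19 was found in 85 of the 177 WT and 59 of the 93 EC-iCD45KO fibroblast-like cells with Cxcl13, against 608 of 5224 and 1154 of 3348 of all fibroblast-like cells. In macrophage-like cells Cxcl13 was lower in EC-iCD45KO, 21.2 CPM in WT against 3.49 CPM, but there 10 WT cells held 89.4% of the UMIs and 1 held 155. Erythroid-like cells went from 10.7 to 76.2 CPM on 5 and 25 UMIs.

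Ccl21a had nearly the same level over all cells, 127 and 131 CPM (10899 UMIs in each library), a log2 ratio of 0.05 [0.01 to 0.09], or -0.04 with the stricter cell filter. That equal total covered opposite differences by class. In lymphatic EC-like cells, whose 8 markers were all detected (3437 and 4365 CPM summed), Ccl21a was 10024 CPM [9753 to 10300] and 15178 CPM [14835 to 15528], a log2 ratio of 0.60 [0.55 to 0.65], under 2-fold. As the mean of single-cell CPM it was 1.20, past 2-fold, and no doublet removal gave the lowest value, 0.42. Markers of other classes differed in the same cells: fibroblast markers summed to 1884 and 501 CPM, B markers to 1189 and 133 CPM, T/NK markers to 499 and 18.4 CPM and macrophage markers to 2560 and 6473 CPM. Their part in the result was not tested. The thinned share of these cells with a UMI was 38.8% [31.6 to 46.3] (69 of 178) and 64.5% [54.9 to 73.4] (71 of 110). The class was 247 and 189 cells and held 5203 and 7417 of the UMIs. In EC-like cells Ccl21a was lower in EC-iCD45KO, 446 CPM [430 to 463] in WT against 65.4 CPM [60.1 to 71.0], a log2 ratio of -2.77 [-2.90 to -2.64].

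The EC-like difference in Ccl21a lay in few cells. The 10 richest EC-like cells held 79.7% of the Ccl21a UMIs in WT and 83.0% in EC-iCD45KO, with 990 and 367 in the richest. The 24 Glycam1-rich WT cells held 2100 of the 2878 WT EC-like Ccl21a UMIs. Lymphatic EC markers summed to 63.9 and 101 CPM in EC-like cells and were at 0 in those 24 cells. In the EC-like cells with fewer than 10 Glycam1 UMIs, Ccl21a was 123 and 66.4 CPM, under 2-fold. In fibroblast-like cells Ccl21a was lower in EC-iCD45KO, 148 CPM in WT against 27.3 CPM (log2 -2.43), and 647 of the 1245 WT UMIs lay in the 35 cells rich in both genes. At Leiden resolution 2 the Inmt, C7 and Dpep1 cluster gave 627 and 35.2 CPM, while the Sfrp4 cluster gave 18.7 and 22.5 CPM, the Slurp1 cluster 44.7 and 42.8 CPM and the Aqp5 cluster 2.44 and 6.17 CPM. In chondrocyte-like cells Ccl21a was 48.4 CPM against 1.90 CPM on 140 UMIs and 1 UMI. It was higher in the EC-iCD45KO library in SMC-like cells (29.7 to 96.5 CPM, log2 1.70), neutrophil-like cells (27.3 to 104 CPM, log2 1.93) and macrophage-like cells (5.31 to 12.7 CPM, log2 1.26). The libraries filled the SMC-like class differently: at Leiden resolution 2 the SMC-like cluster led by S100g and Slc22a3 held 338 WT and 2144 EC-iCD45KO cells, with Ccl21a at 189 and 301 CPM, under 2-fold. B-like cells, which should lack Ccl21a, stood at 7.06 and 11.96 CPM, so levels near these, the macrophage-like ones included, cannot be read as expression.

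Ltb encodes lymphotoxin beta, the membrane chain by which lymphocytes signal to stroma through the lymphotoxin beta receptor. In the cells that make it the levels were within 2-fold: B-like cells stood at 638 CPM [625 to 652] and 801 CPM [744 to 861] (log2 0.33), T/NK-like cells at 599 CPM [583 to 616] and 691 CPM [643 to 741] (log2 0.20). Thinned shares of cells with a UMI were 44.4% and 55.0% for the B-like class and 41.3% and 45.5% for the T/NK-like class. The 7.01-fold lower level over all cells, 260 against 37.1 CPM, thus stood beside B-like and T/NK-like shares that were 16.1% and 10.3% of WT and 1.28% and 1.52% of EC-iCD45KO cells. Of the members tested in those 2 classes (2 in B-like, 3 in T/NK-like cells) 0 were 2-fold apart in either direction, against 5.04% and 7.39% of all genes.

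**Figure D5:**
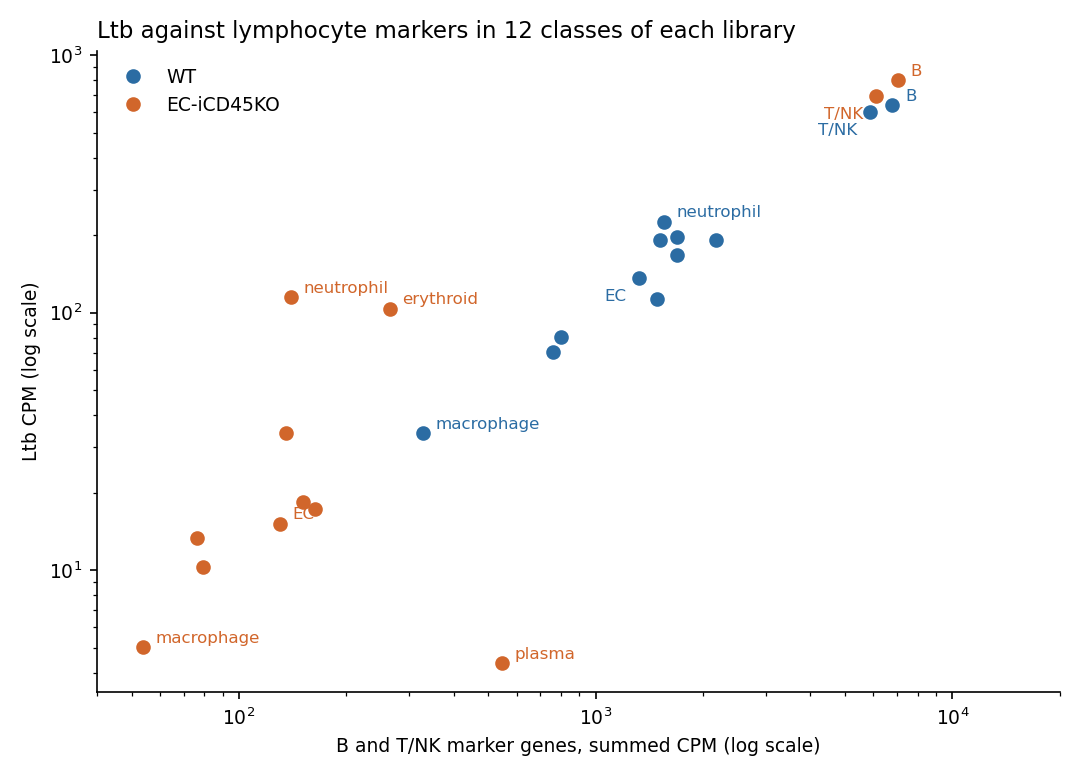
Ltb (CPM, log axis) against the summed level of B and T/NK marker genes (CPM, log axis) in the 12 named classes of the WT (blue) and EC-iCD45KO (orange) libraries, 1 point per class and library. EC-like cells moved from 137 to 15.2 CPM of Ltb while their lymphocyte markers moved from 1326 to 131 CPM; EC-iCD45KO neutrophil-like cells, at 115 CPM of Ltb and 140 CPM of the markers, hold the most Ltb per marker of all points.

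Ltb was also counted outside the lymphocyte classes. In each of the 10 other classes both Ltb and the summed lymphocyte markers were lower in EC-iCD45KO, though not always by like amounts, as the plot of Ltb against those markers shows. In EC-like cells Ltb was lower in EC-iCD45KO, 137 CPM in WT against 15.2 CPM (log2 -3.17) and the summed B and T/NK markers were 1326 CPM against 131 CPM. Per 100 lymphocyte marker UMIs this was 10.3 and 11.6 Ltb UMIs, next to 9.40 and 11.4 for the B-like class and 10.2 and 11.3 for the T/NK-like class. Fibroblast-like cells gave 9.86 and 10.6. In WT the 12 classes ranged from 7.58 (plasma-like) to 14.5 (neutrophil-like). In EC-iCD45KO the range was wider, from 0.800 in plasma-like cells (1 Ltb UMI) to 82.0 in neutrophil-like cells. Neutrophil-like cells held 219 Ltb UMIs there (115 CPM, against 226 CPM in WT), while their markers were 1556 and 140 CPM. Erythroid-like cells stood at 39.1 per 100, with Ltb at 191 and 104 CPM and markers at 2175 and 265 CPM. Schwann-like cells stood at 25.2 and chondrocyte-like cells at 17.5, on 28 and 7 Ltb UMIs. The part of lymphocyte RNA in these counts was not tested, and Ltb outside B-like and T/NK-like cells is not read as expression.

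Outside the EC-like, fibroblast-like and lymphocyte classes, few members passed the minimum, and their calls are read against the share of all genes in the same class. Ltb enters these counts although it is not read as expression in these classes. The counts include members that passed the minimum through 1 library alone, such as Glycam1 in neutrophil-like and Ccl21a in chondrocyte-like cells. In SMC-like cells 2 of 5 members were at least 2-fold higher (Ccl19 and Ccl21a; 1.77% of genes) and 2 lower (Glycam1 and Ltb; 3.24%). That Glycam1 call rests on 3 WT cells, so without it and Ltb 0 of 3 were lower. In macrophage-like cells 1 of 3 was higher (Ccl21a; 0.703%) and 2 lower (Cxcl13 and Ltb; 1.85%), of which Ccl21a stood near its level in B-like cells. In lymphatic EC-like cells 0 of 3 were higher (6.09% of genes) and 2 lower (Ccl19 and Ltb; 6.09%). In neutrophil-like cells 1 of 4 was higher (Ccl21a; 5.95%) and 1 lower (Glycam1; 7.72%). In the small classes the share of all genes past 2-fold was larger. Chondrocyte-like cells had 0 of 3 higher (3.62%) and 2 lower (Ccl21a and Ltb; 10.8%), and erythroid-like cells 1 of 4 higher (Cxcl13; 10.1%) and 1 lower (Enpp2; 9.78%). Plasma-like cells had 1 of 3 higher (Ccl19; 8.22%) and 1 lower (Ltb; 20.9%), and Schwann-like cells 1 of 2 higher (Ccl21a; 13.8%) and 1 lower (Ltb; 6.61%).

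The other genes of the pathway were taken as 5 fixed lists and described with the same 2-fold rule in EC-like cells. Of 16 genes for venule glycosylation and surface proteins, 13 passed the minimum, 4 were higher and 0 lower, with a median log2 ratio of 0.35. The 4 were B3gnt3, which extends the sugar chains that are sulphated in venules (9.92 and 41.2 CPM), Ackr1 (100 and 250 CPM), Selp (109 and 328 CPM) and Sele, which encodes E-selectin (24.2 and 62.4 CPM). Over all genes tested in EC-like cells 1.84% were at least 2-fold higher. The libraries filled the class differently: at Leiden resolution 2 the EC-like cluster led by Ackr1, Csf3 and Sele held 306 WT and 559 EC-iCD45KO cells, and its part in these values was not tested. Within that cluster Glycam1 was 668 CPM in WT and 80.5 CPM in EC-iCD45KO. Of 11 receptor genes of the members, 6 passed the minimum, 0 were higher and 4 lower (Itga4, Itgb7, Ccr7 and Cxcr5), where 3.81% of all genes were lower. Ccr7, which encodes the receptor of CCL19 and CCL21, was 55.8 and 10.4 CPM. Cxcr5, which encodes the receptor of CXCL13, was 24.5 and 4.17 CPM. All 4 are carried by lymphocytes, and the B and T/NK marker sums given above for EC-like cells were also lower in EC-iCD45KO; the part of lymphocyte RNA in these levels was not tested.

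Of 13 genes for lymphotoxin and NF-kB2 signalling, 9 passed in EC-like cells and 0 were 2-fold apart. Ltbr, the receptor for lymphotoxin, was 37.1 and 53.0 CPM. Of 9 other organising signals, 5 passed and 0 were 2-fold apart. Of 8 genes of lymph node stroma and follicular dendritic cells, 5 passed, with Pdpn (podoplanin) higher at 10.5 and 21.4 CPM and Cr2 (complement receptor 2, also carried by B cells) lower at 27.0 and 0.811 CPM. In fibroblast-like cells the lists gave 0 higher. There 4 of 6 receptor genes tested, 1 of 11 lymphotoxin and NF-kB2 genes (Lta) and 1 of 6 stromal genes (Cr2) were lower, where 5.36% of all genes were. In lymphatic EC-like cells all 4 receptor genes tested were lower in EC-iCD45KO (Itga4, Itgb7, Ccr7 and Ackr4), where 6.09% of all genes were. Of these, the scavenging receptor Ackr4, which binds CCL19 and CCL21, was 114 CPM in WT against 10.2 CPM (log2 -3.47). Fibroblast, B and T/NK markers were also lower in that class (above), and their part was not tested.

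Across the 12 classes of both libraries (24 points that share library and depth), the genes whose levels most resembled a member's were found by Pearson correlation of log2(CPM + 1). The correlations are descriptions. For Ccl21a they were Mmrn1 (0.94), Tbx1 (0.93) and Sema3a (0.92), of which Mmrn1 and Tbx1 were also used to name the lymphatic EC-like class. For Ccl19 they were Bnc2 (0.92), Col6a5 (0.90) and Svep1 (0.89), and for Ltb Satb1 (0.97), Pacsin1 (0.96) and Tespa1 (0.95). Enpp2 was closest to Plod2 (0.89), Sparc (0.88) and Col6a1 (0.88), and Cxcl13 to Spon1 (0.71), Syndig1 (0.71) and Col14a1 (0.66). Glycam1 was closest to Serpina1e (0.70), Ifi44 (0.69) and Zfp950 (0.66), and Fut7 to Pef1 (0.66), Kazn (0.63) and Fbxo6 (0.60). Chst4 and Madcam1 had under 100 UMIs and were not compared.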

How the data were processed

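The deposited matrices of 2 libraries, 1 per group, hold whole-number UMI counts per gene and cell barcode. They were made with Cell Ranger 7.1.0 and the build mm10, per the submitters' processing notes; further settings are not given in the sources used here. Every deposited barcode had at least 500 UMIs, with a median of 1548 in WT (39849 barcodes) and 1405 in EC-iCD45KO (30278). Of 32285 gene identifiers, 32235 matched GENCODE M21.

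Cells had to hold 300 genes or more and no more than 10% mitochondrial UMIs. Scrublet with its own threshold marked 3 and 0 doublets and so had not worked. Instead, the top-scoring 10% of each library were dropped. Cells of both libraries were clustered together in scanpy 1.11.5 (2000 variable genes, 30 components, 20 neighbours, leidenalg 0.10.2, resolution 1). The members and pathway genes were left out of this clustering, while immunoglobulin genes stayed in. A cluster was named from its markers if their mean log2 excess over the median cluster was at least 1 and led the next class by 0.75 on at least 3 markers. It also needed 50 cells. It stayed unnamed if its 10 leading genes held more markers of another class than of its own. Outside B and plasma, immunoglobulin genes among the leading genes barred a name if they were at least as many as own markers (the immunoglobulin rule). A depth rule barred shallow clusters with no own marker among them. The doublet rule, the naming thresholds and the immunoglobulin rule were set after seeing the data. The 9 members and all lists were chosen with earlier results of these data known. 1 gene of the receptor list is not reported here and is left out of its counts.

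CPM is a gene's UMIs over the summed cells of a class, per 1000000 UMIs of the same cells. Intervals are exact Poisson (CPM), Clopper-Pearson (shares), Newcombe (differences of shares) and exact conditional binomial (ratios), all at 95% for counting error only. Where a share was 0, the upper limit printed is 3 counts of the total, not the Clopper-Pearson bound. UMIs are molecules, but cells of 1 library are not replicates, so no test was made. A 2-fold call needed a mean of 5 CPM and 20 UMIs. Shares of cells with a UMI of a single gene were thinned to 1000 UMIs in 1 draw. Shares of cells with 2 or more venule genes were the mean of 100 such draws. Named genes were the members, the pathway lists, and the 3 genes most like each member with at least 100 UMIs, among genes reaching 20 CPM in 1 class and library. On simulated EC-like counts for 10917 genes, 96.0% of true ratios lay in their interval. These counts were drawn from the same model that the interval assumes, so this checks the code only. It does not cover genes below 5 CPM or UMIs gathered in few cells. All simulated 4-fold changes passed 2-fold, and of 2-fold changes 48.1% (higher) and 35.6% (lower) did. Alternatives were other cell filters, no doublet removal, Leiden resolution 2, edgeR 4.0.16 TMM scaling and other summaries.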

Additional observations from a re-analysis of the deposited data

Results flagged for a closer look

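Cells in clusters that no marker list could name were left out of the comparisons by class, and 2 members stood above the WT level there. Ccl19 was 39.0 CPM in the unnamed EC-iCD45KO cells (516 UMIs) and 15.2 CPM in the unnamed WT cells (303 UMIs), a log2 ratio of 1.36 [1.15 to 1.57]. Ccl21a was 58.8 CPM (779 UMIs) and 43.4 CPM (866 UMIs), a log2 ratio of 0.44 [0.30 to 0.58]. The unnamed cells came from different clusters in each library (1 cluster held 4029 WT and 344 EC-iCD45KO cells, another 541 and 3261), so these ratios compare unlike cells. Both intervals cover counting error only, and no library has a replicate.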

How the results depend on the processing

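No direction of the 4 summary results reversed under any alternative run. The summed venule genes in EC-like cells (log2 ratio -3.12) ranged from -3.69 to -2.76 over 9 alternatives. The value was -2.76 with a looser cell filter, -3.69 as the mean of single-cell CPM and -3.40 without the 10 cells richest in these genes in each library. The last of these, like the use of unnamed clusters near EC-like cells, was chosen after seeing the data. The share of EC-like cells with 2 or more venule genes differed by -0.64 to -0.38 percentage points over 7 alternatives, against -0.49. The summed organising genes over all cells (log2 ratio -0.62) were -0.68 without mitochondrial, ribosomal and haemoglobin genes, -0.46 as the mean of single-cell CPM, and -0.52 without lymphocyte-like cells, which was chosen after seeing the data. With no abundance minimum and 0.5 CPM added, 5 members in place of 3 passed 2-fold. The causes of these shifts were not tested. Of single members, Ccl21a over all cells ranged from -0.04 to 0.60 and kept its sign in 4 of 6 alternatives, and Enpp2 in chondrocyte-like cells ranged from -0.25 to 0.88. No paired analysis was possible because the study holds a single library of either genotype. The EC-iCD45KO levels of Fut7, Chst4 and Madcam1 in EC-like cells rest on 6, 4 and 1 UMIs, so their ratios have wide counting intervals.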

Other observations

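Glycam1 was also abundant in cells outside the named classes. An unnamed cluster led by S100g, Igfbp2, Glycam1, Selp and Ackr1 held 254 WT and 854 EC-iCD45KO cells, and Glycam1 stood there at 1329 CPM (644 UMIs) and 11.02 CPM (20 UMIs), a log2 ratio of -6.91 [-7.63 to -6.27]. In the same cluster Ccl19 was 30.9 and 190 CPM. At Leiden resolution 2 the cells led by S100g and Selp numbered 43 and 686, with Ccl19 at 121 and 181 CPM, under 2-fold, and those led by Igfbp2 and Glycam1 numbered 191 and 295. Another unnamed resolution 2 cluster, led by Ighg3, Actg2 and Tafa1 (1217 and 70 cells), went the other way for Glycam1. It held 41.5 CPM (64 UMIs) in WT and 522 CPM (46 UMIs) in EC-iCD45KO. An unnamed cluster at resolution 1 led by Sfrp1, Edn1, Bmx and Gja5, whose nearest markers were those of EC, differed: Glycam1 was 92.2 and 83.8 CPM there, and Ccl21a 14.4 and 305 CPM. It passed the EC thresholds (excess 4.26, lead 2.05) but stayed unnamed, since Krt18, an epithelial marker, was among its leading genes. It is in no main EC-like value. The resolution 2 cells led by Sfrp1, Krt18 and Tmem158 (676 and 441) had Glycam1 at 106 and 92.2 CPM. Their Ccl21a turned to 14.0 and 6.53 CPM, on 22 and 8 UMIs. A WT-only cluster of 2050 cells, led by Glycam1, Gm26917, Cytl1 and Ighm, held Glycam1 at 237 CPM. No EC-iCD45KO cell lay in that cluster, so library and cell type cannot be told apart there.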
